A study of Mus musculus with 10 samples.

Results

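*Notch1*, *Notch2*, *Jag1* and *Hes1* are 4 genes of the Notch pathway, 2 receptors, a Jagged ligand and a transcriptional target, chosen by name from the 17813 genes that the arrays of this study measured. Each gene was read from a probe set, a group of array probes for a transcript, that is annotated to that gene alone, and if a gene had several, the one with the highest mean over the 10 arrays was taken. The table holds 1 such probe set for each of the 4 genes. RNA was compared between distal tip cells of the late and the early embryonic mouse lung, 5 arrays a stage. E17.5 tip progenitors were GFP+ cells collected by flow cytometry from dissociated lungs of *Id2-CreER; Rosa26R-fGFP* embryos whose mothers received tamoxifen at E16.5, so that the label marks cells in which the *Id2* promoter drove the inducible Cre, together with some of their recent descendants. E11.5 distal tips were microdissected by hand after dispase from embryos labelled with the same genotype, and the labels mention neither tamoxifen nor a sort for them. Stage and manner of isolation go together here and cannot be told apart. Per the labels these are biological replicates, but no source used here ties them to separate litters, so p-values measure the spread between these arrays.

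Notch signalling passes between touching cells. A Jagged or Delta ligand on one cell binds a Notch receptor on the next, the receptor is cut by an ADAM protease and then by gamma-secretase, and the freed intracellular domain joins the DNA-binding protein RBPJ and Mastermind to switch on target genes, many of which encode repressors of the Hes and Hey families. In the developing lung the pathway is known for its part in the choice of secretory, ciliated and neuroendocrine fates in the airway epithelium, and it also acts in blood vessels and smooth muscle. The study asked which signalling pathways could control alveolar fate, and the intracellular domain of NOTCH1 was among the factors it overexpressed in other experiments that are not part of these arrays.

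The promoters of the 3 genes that fell together are shown because 2 of them are rich in the same short motif and the third has none. RefSeq promoter windows (build GRCm38.p6) were found for 3 of the 4 genes. Each line gives the 250 bases before the gene start, 5′ to 3′ on the gene's strand, with every GC box in capitals (GGGCGG or, on the other strand, CCGCCC), a motif bound by SP1-like factors. *Notch1* lies on the minus strand (chr2:26503823-26504072), *Notch2* on the plus strand (chr3:98013288-98013537) and *Jag1* on the minus strand (chr2:137116521-137116770).
Notch1: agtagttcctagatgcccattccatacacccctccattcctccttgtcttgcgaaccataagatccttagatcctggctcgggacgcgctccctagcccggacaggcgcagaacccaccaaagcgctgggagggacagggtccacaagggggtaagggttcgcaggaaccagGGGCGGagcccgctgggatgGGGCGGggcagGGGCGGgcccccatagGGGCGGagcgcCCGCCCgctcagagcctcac
Notch2: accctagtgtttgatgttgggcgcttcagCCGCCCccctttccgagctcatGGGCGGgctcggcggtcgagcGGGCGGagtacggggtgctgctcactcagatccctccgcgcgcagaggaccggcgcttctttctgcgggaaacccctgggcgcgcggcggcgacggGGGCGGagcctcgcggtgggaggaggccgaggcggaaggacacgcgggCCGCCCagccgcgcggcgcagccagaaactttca
Jag1: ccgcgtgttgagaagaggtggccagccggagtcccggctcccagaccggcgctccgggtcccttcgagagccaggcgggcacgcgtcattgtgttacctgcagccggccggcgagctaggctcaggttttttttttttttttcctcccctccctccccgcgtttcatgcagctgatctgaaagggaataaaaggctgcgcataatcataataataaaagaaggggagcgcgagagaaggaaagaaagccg
The *Notch1* window held 5 GC boxes, which begin 78, 58, 47, 31 and 20 bases before the start. The *Notch2* window also held 5, which begin 221, 199, 178, 82 and 34 bases before the start, and the *Jag1* window held 0. A GC box was found in 32.7% of all 32851 mouse windows of this length. It was not particular to the genes that fell. Windows with it were found for 5 of 5 genes of receptor glycosylation, 3 of 3 ligand ubiquitin ligases and 8 of 10 corepressors. The same held for 6 of 8 genes of receptor cleavage, 4 of 5 other target genes and 4 of 6 other ligands. It was found for 5 of 8 genes of inhibitors and turnover, 3 of 8 of the nuclear complex and 1 of 2 other receptors. G and C made up 66.0% of the *Notch1* window, 72.0% of the *Notch2* window and 57.2% of the *Jag1* window, against a median of 52.4% over all windows. Matches to one motif did not overlap each other in these windows.

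The RBPJ motif (GTGGGAA or TTCCCAC) was found in 0 of these 3 windows and in 5.42% of all windows. Among the other target genes on the pathway list, windows were found for 5, and 3 of these held the motif (*Hes5*, *Hes7* and *Hey2*). The windows of *Hes5* (plus strand, chr4:154960673-154960922) and *Hey2* (minus strand, chr10:30842784-30843033) are shown with the RBPJ motif in capitals, because this is the motif that the complex downstream of the receptors recognises.
Hes5: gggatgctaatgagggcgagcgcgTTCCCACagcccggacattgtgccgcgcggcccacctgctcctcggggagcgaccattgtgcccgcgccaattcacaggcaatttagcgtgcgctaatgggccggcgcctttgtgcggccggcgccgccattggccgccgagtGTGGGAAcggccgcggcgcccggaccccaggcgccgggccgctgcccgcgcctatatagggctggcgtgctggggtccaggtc
Hey2: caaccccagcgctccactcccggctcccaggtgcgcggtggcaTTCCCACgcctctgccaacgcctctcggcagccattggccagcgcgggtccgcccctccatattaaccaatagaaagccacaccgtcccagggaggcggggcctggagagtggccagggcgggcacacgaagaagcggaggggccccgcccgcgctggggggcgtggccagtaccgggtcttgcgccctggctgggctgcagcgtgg
In *Hes5*, which encodes a bHLH repressor, the 2 matches begin 226 and 83 bases before the start and face opposite ways. In *Hey2*, which encodes a related repressor, the 1 match begins 207 bases before it. The motif was not particular to target genes, as it was also found in the windows of *Psen2* (1 of 8 windowed genes of receptor cleavage), *Spen* (1 of 10 corepressors) and *Lfng* (1 of 5 genes of receptor glycosylation). It was found in 0 of 2 windowed genes among the other receptors and in 0 of 6 among the other ligands. A match of letters is a description of the sequence and was not tested for binding in these cells.

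The arrays of a stage resembled each other, with correlations across genes of 0.984 to 0.993 among E17.5 arrays and 0.988 to 0.996 among E11.5 arrays, against 0.819 to 0.847 between stages. Values are log2 signals as deposited, from 2.472 to 15.03, and stages were compared with limma as E17.5 minus E11.5, with calls at 0.05 after Benjamini-Hochberg adjustment over all genes. By that rule 68.4% of all genes were called, 36.9% higher and 31.5% lower at E17.5, so that a single call is common in these data. Of 16 pan-epithelial markers measured, 8 were higher and 4 lower at E17.5, with *Grhl2* 4.55 and *Krt19* 2.23 above E11.5 on the log2 scale. The 4 lower were *Cldn6*, *Foxa2*, *Esrp1* and *Spint2*. Of 10 tip progenitor markers 4 were higher and 4 lower, and the largest differences were falls in *Shh* (by 3.47) and *Spry2* (by 2.79). Markers of other cells went different ways, with 14 of 16 endothelial genes higher at E17.5 and 0 lower, 14 of 17 macrophage and monocyte genes higher and 1 lower, 7 of 16 mesenchymal genes higher and 6 lower, 1 of 7 erythroid genes higher and 5 lower, and 0 of 5 neural and Schwann genes higher and 3 lower. All 16 immediate early genes were higher, a group that is induced rapidly by many stimuli.

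Both receptors among the 4 genes were lower in E17.5 tip progenitors. *Notch2*, which encodes a receptor found in many epithelia, had log2 signals of 6.04, 5.62, 5.72, 5.82 and 6.04 on E17.5 arrays (replicates 1 to 5), against 9.42, 9.26, 9.45, 9.21 and 9.46 on E11.5 arrays. The highest E17.5 array lay far below the lowest E11.5 array. *Notch2* fell 11.4-fold (log2 difference -3.51, standard error 0.11, adjusted p = 3.1e-11 from limma), with means of 5.85 ± 0.19 at E17.5 and 9.36 ± 0.12 at E11.5 (SD, n = 5 arrays each). In size this difference exceeded that of 94.3% of all genes. In whole samples of cells, fewer cells that carry a transcript and less of it per cell cannot be told apart.

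*Notch1* encodes the receptor whose intracellular domain the study used. Its log2 signals were 9.19, 9.71, 9.60, 9.75 and 9.78 on E17.5 arrays, against 11.21, 11.22, 11.02, 11.10 and 11.13 on E11.5 arrays. Replicate 1 was the lowest E17.5 array, and the stages did not overlap. *Notch1* fell 2.89-fold (log2 difference -1.53, standard error 0.12, adjusted p = 1.4e-07 from limma), with means of 9.60 ± 0.24 at E17.5 and 11.13 ± 0.08 at E11.5 (SD, n = 5 each). Its mean over all arrays stood at percentile 81.6 of the genes and that of *Notch2* at percentile 49.4, but signals of different probe sets also depend on the probes, so levels are not compared between genes.

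*Jag1* encodes a membrane-bound ligand of these receptors. Its log2 signals were 6.28, 5.80, 5.62, 5.77 and 5.83 on E17.5 arrays, against 7.94, 7.87, 7.65, 7.78 and 7.78 on E11.5 arrays. Replicate 1 was the highest E17.5 array, and again the stages did not overlap. *Jag1* fell 3.84-fold (log2 difference -1.94, standard error 0.12, adjusted p = 2.2e-08 from limma), with means of 5.86 ± 0.25 at E17.5 and 7.80 ± 0.11 at E11.5 (SD, n = 5 each).

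*Hes1* encodes a bHLH repressor that is a classical target of the receptors and also answers to other signals. Its log2 signals were 10.60, 10.33, 10.46, 10.31 and 10.31 on E17.5 arrays, against 10.08, 10.11, 10.16, 10.18 and 10.18 on E11.5 arrays. As deposited, every E17.5 array lay above every E11.5 array. The means were 10.40 ± 0.13 at E17.5 and 10.14 ± 0.05 at E11.5 (SD, n = 5 each), a 1.20-fold difference (log2 difference 0.26, standard error 0.083, adjusted p = 0.014 from limma), whose direction turned to -0.34 (adjusted p = 0.0030) after quantile normalization and to -0.43 (adjusted p = 0.00048) after centring on the pan-epithelial genes. The call was lost at 0.13 (adjusted p = 0.26) after median centring. The direction of *Hes1* thus rests on the scaling. Centring on the pan-epithelial genes moved all differences by -0.70, while the median difference of those 16 genes was 0.34. A few strongly raised genes of that list therefore weigh on the value of -0.43.

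**Figure D1:**
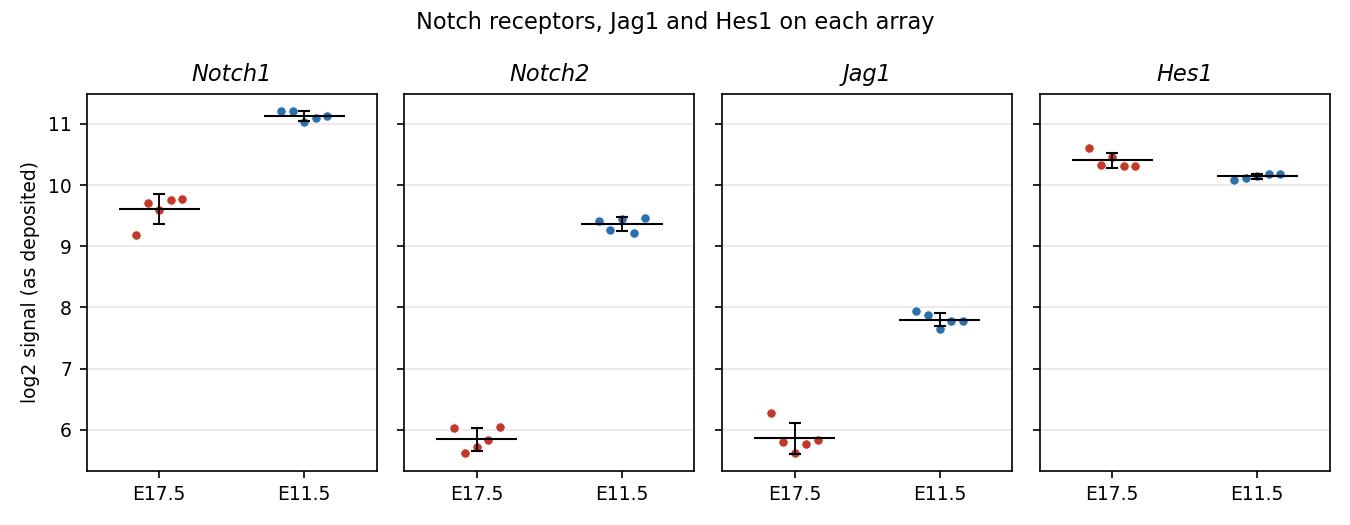
Log2 signal as deposited (y axis) of the 4 genes on each array, E17.5 in red on the left and E11.5 in blue on the right; points are arrays in order of replicate, the line is the mean and the bars 1 SD (n = 5 each). *Notch1*, *Notch2* and *Jag1* lie lower on all E17.5 arrays than on any E11.5 array, while *Hes1* lies 0.26 higher on average, a difference that turns to -0.34 after quantile normalization.

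Of the 4 genes, 3 were lower and 1 higher, beside 31.5% lower and 36.9% higher among all genes. Their arrays did not overlap between stages for any of the 4, which held for 58.6% of all genes (32.3% with E17.5 above and 26.3% with E17.5 below). The falls of *Notch1*, *Notch2* and *Jag1* stood under every scaling. They were -2.08, -3.78 and -2.09 after quantile normalization, -1.66, -3.64 and -2.07 after median centring, and -2.23, -4.21 and -2.64 after centring on the pan-epithelial genes, in that order of genes. Quantile normalization moved the median difference of all genes by -0.065, median centring by -0.13 and pan-epithelial centring by -0.70. Relative to that median, *Hes1* stood at 0.23 as deposited and under both centrings, and at -0.31 after quantile normalization. Because all 3 alternatives moved the median down, they lean towards falls, and a fall kept under them is little support for it.

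**Figure D2:**
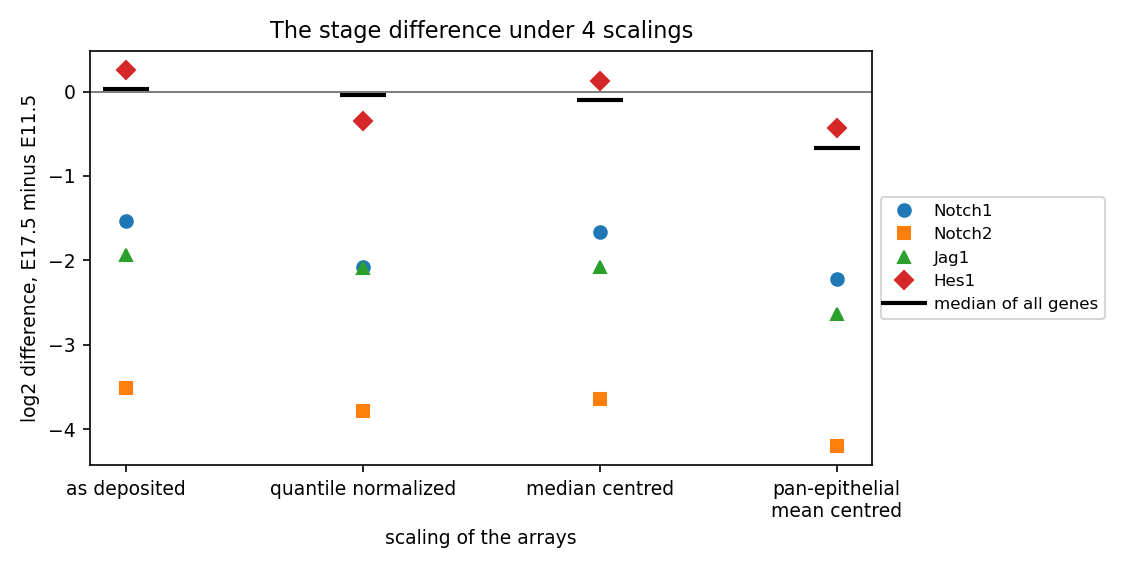
Log2 difference between stages, E17.5 minus E11.5 (y axis), of the 4 genes under 4 scalings of the arrays (x axis); black bars mark the median difference of all genes. *Notch1*, *Notch2* and *Jag1* stay between -1.53 and -4.21, whereas *Hes1* lies at 0.26 as deposited, -0.34 after quantile normalization, 0.13 after median centring and -0.43 after pan-epithelial centring.

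The 4 genes were also compared with each other on the same array, since the difference between 2 genes of an array is not altered by a constant shift of that array. The question was whether they changed by different amounts. The measured signal of *Notch2* fell more than that of each of the others. The log2 signal of *Notch1* minus that of *Notch2* averaged 3.76 ± 0.36 on E17.5 arrays and 1.78 ± 0.16 on E11.5 arrays (SD, n = 5 each), a stage difference of 1.98. *Notch2* minus *Jag1* averaged -0.01 ± 0.19 on E17.5 arrays and 1.56 ± 0.18 on E11.5 arrays, a stage difference of -1.57. The stages did not overlap for either pair. That also held for 58.6% of single genes, and no share over other pairs of genes was computed. The mean of *Jag1* over all arrays stood at percentile 42.3 of the genes, below the median gene, and a low signal can understate a fall. On E17.5 arrays *Notch2* was as dim, with a mean of 5.85 beside 5.86 for *Jag1*, so its fall may be understated too. The second pair therefore compares measured signals and leaves unsettled whether the *Notch2* transcript fell more than that of *Jag1*.

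Both receptors and the ligand fell relative to *Hes1*. The stage difference was -1.79 for *Notch1* minus *Hes1*, -3.77 for *Notch2* minus *Hes1* and -2.20 for *Jag1* minus *Hes1*. For these 3 pairs and the previous 2, the two-sided exact permutation test over arrays gave p = 0.00794 each, the smallest that the 252 splits allow, and adjusted p = 0.00952 over the 6 pairs. Any pair of genes whose stages do not overlap gives this smallest p, so it is not particular to these genes. The direction of these 5 pairs held after quantile normalization and without any single array. *Notch1* and *Jag1* differed least: their difference averaged 3.74 ± 0.47 on E17.5 arrays and 3.33 ± 0.04 on E11.5 arrays, a stage difference of 0.41 (exact permutation test, adjusted p = 0.048). The arrays overlapped for this pair, in which replicate 1 lay lowest at E17.5, and the difference was 0.0095 (adjusted p = 1) after quantile normalization, so that unequal falls of *Notch1* and *Jag1* are not established.

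**Figure D3:**
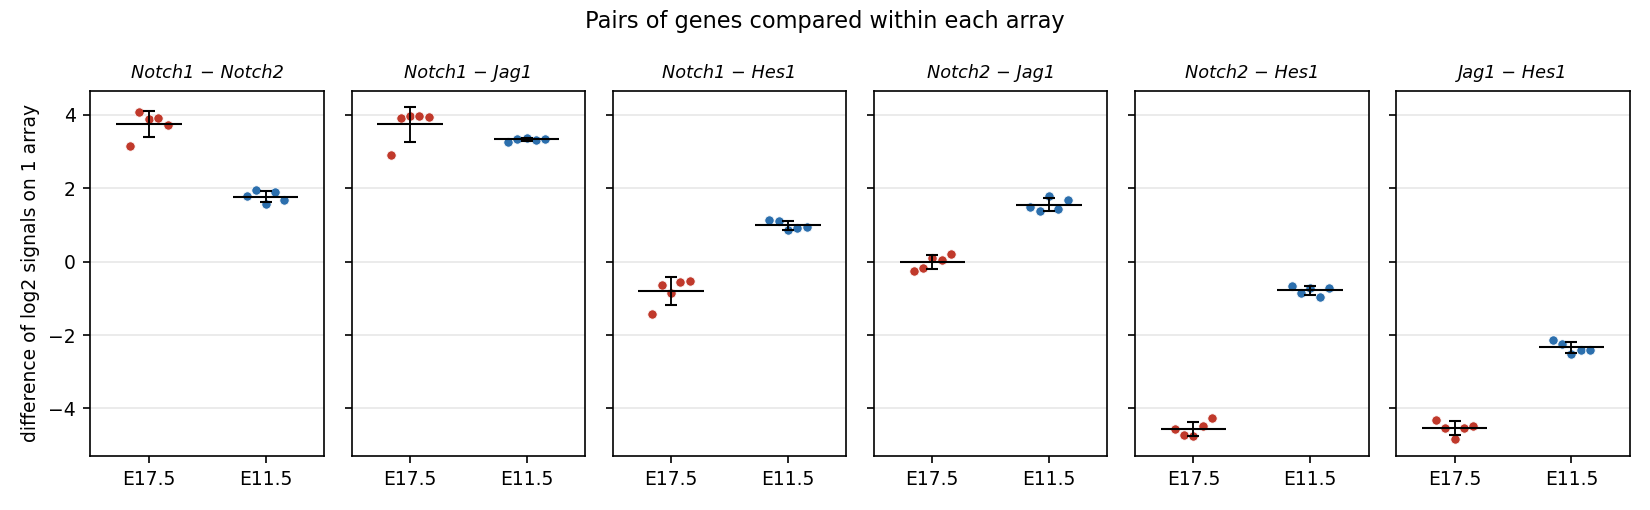
Difference of the log2 signals of 2 genes on the same array (y axis) for each of the 6 pairs, E17.5 in red on the left and E11.5 in blue on the right, with the mean and 1 SD (n = 5 each). The stages are apart in 5 pairs and overlap for *Notch1* minus *Jag1*, where the means are 3.74 at E17.5 and 3.33 at E11.5.

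The pattern of each gene was set against all other genes by the root mean square difference of log2 signals over the 10 arrays, each gene centred on its own mean, and the 3 closest genes were named. For *Notch1* these were *Gnl3*, a nucleolar GTPase gene (0.104), *Eri1*, an exoribonuclease gene (0.111), and *Dph2*, which takes part in diphthamide synthesis (0.117). For *Notch2* they were *Rassf3* (0.109), the RNA-binding protein gene *Rbm15b* (0.129) and *Fam204a* (0.133). For *Jag1* they were the phosphate transporter gene *Slc20a1* (0.0989), the RNA exosome subunit gene *Exosc4* (0.112) and *Serac1* (0.118), and for *Hes1* they were *Tmem192* (0.0527), the noncoding RNA gene *Zfas1* (0.0663) and *Gm10228* (0.0694). None of these 12 genes is on the pathway lists, and the measure is a description over 10 arrays that mainly differ by stage.

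The other 2 Notch receptors were lower at E17.5 too, so that all 4 receptors of the mouse were lower as deposited, under the other 3 scalings and without any single array. Those 3 scalings lean towards falls, as described above. *Notch4*, the receptor mainly known from endothelium, had log2 signals of 3.07, 3.18, 3.33, 2.95 and 3.11 on E17.5 arrays, against 6.46, 5.79, 5.85, 6.04 and 5.80 on E11.5 arrays. It fell 7.26-fold (log2 difference -2.86, standard error 0.13, adjusted p = 1.6e-09 from limma) and was near the lowest signals of the table at E17.5. On the same arrays the mean log2 signal of the endothelial markers was higher, between 8.70 and 10.6 on E17.5 arrays and between 5.50 and 6.49 on E11.5 arrays. *Notch3*, known from smooth muscle and pericytes and also present in airway epithelium, had 9.23, 9.99, 9.72, 9.50 and 9.79 on E17.5 arrays, against 11.07, 11.54, 11.33, 11.56 and 11.66 on E11.5 arrays. It fell 3.45-fold (log2 difference -1.79, adjusted p = 4.8e-07 from limma), while 6 of 12 smooth muscle and pericyte markers were higher and 4 lower, among them *Acta2* (4.32 higher) and *Myocd* (-3.42).

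The ligands did not move as one. *Jag2*, the second Jagged ligand, rose while *Jag1* fell. It had 10.41, 10.56, 10.65, 10.65 and 10.73 on E17.5 arrays, against 7.33, 7.63, 7.89, 7.43 and 7.74 on E11.5 arrays, and the stages were far apart. The rise was 7.98-fold (log2 difference 3.00, standard error 0.12, adjusted p = 2.9e-10 from limma). Of the 6 other ligand genes, 3 were higher and 0 lower as deposited, and 3 higher and 2 lower after centring on the pan-epithelial genes. The remaining 2 that rose were *Dlk2* (2.81) and *Dlk1* (1.52), which encode non-canonical Delta-like proteins that lack the motif through which canonical ligands bind the receptor. *Dlk1* was already bright, with 14.16 to 14.32 on E17.5 arrays and 12.53 to 12.79 on E11.5 arrays. All 3 rises held under the 4 scalings.

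The Delta ligands did not pass the threshold as deposited. *Dll1* had a log2 difference of 0.39 (adjusted p = 0.10), *Dll3* of -0.28 (adjusted p = 0.21) and *Dll4* of 0.21 (adjusted p = 0.34). *Dll3* ranged from 3.46 to 4.55 on E17.5 arrays and from 4.00 to 4.59 on E11.5 arrays, close to the dimmest genes. *Dll4*, a ligand of vessel tips, was highest on E17.5 replicates 2 and 5 (6.89 and 7.28), against 6.26 to 6.69 on E11.5 arrays. These are the 2 arrays with the highest endothelial list means (10.4 and 10.6), and the part of endothelial RNA in the value was not tested.

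Across the pathway without the 4 genes, 63 of 69 listed genes were measured. Of these, 33 were higher, 18 lower and 12 not called, that is 52.4% higher and 28.6% lower, beside 36.9% and 31.5% of all genes. Their median log2 difference was 0.41, beside 0.027 for all genes. The split rests on the scaling, as 25 were higher and 22 lower after quantile normalization, and 23 were higher and 29 lower after centring on the pan-epithelial genes. Of the called genes 64.7% were higher as deposited, against 53.2% and 44.2% under these scalings, and the same share over all genes was 53.9%, 45.0% and 26.8%. Called the same way under all 4 scalings were 23 higher and 18 lower genes.

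**Figure D4:**
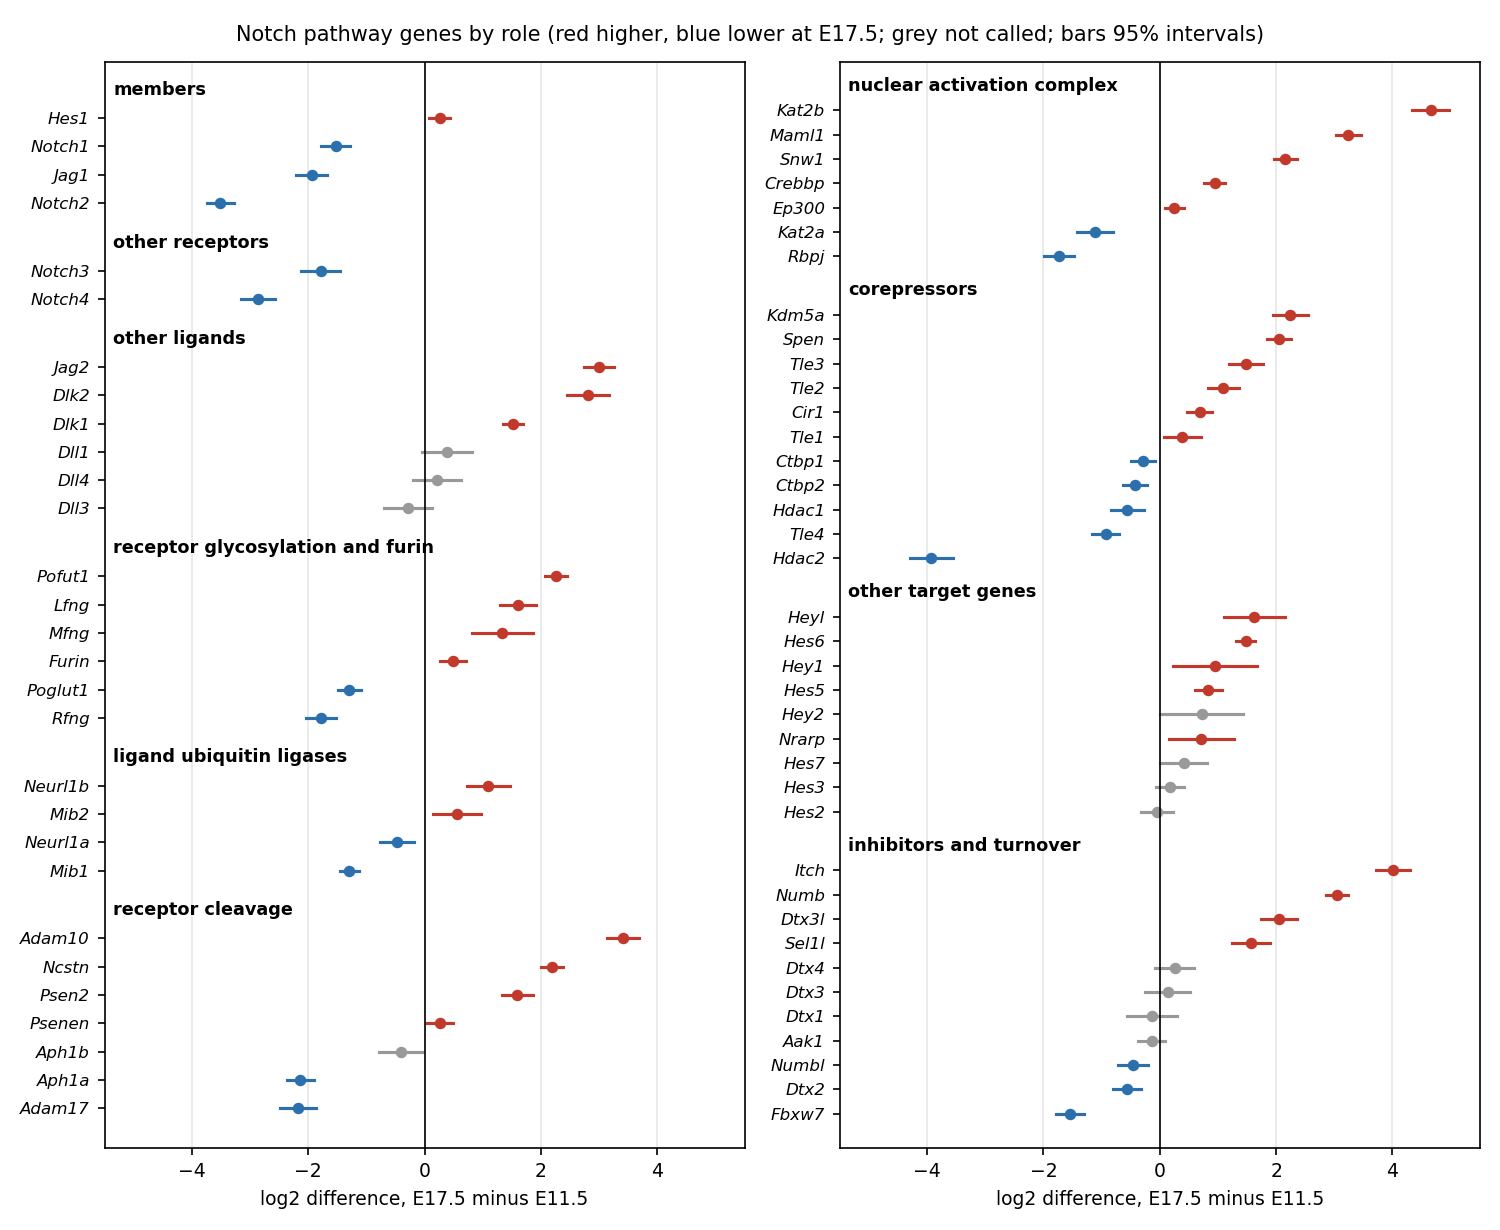
Log2 difference, E17.5 minus E11.5 (x axis), with 95% confidence intervals from limma, for the 4 genes (headed members) and the other measured genes of the Notch pathway, grouped by role; red genes were called higher, blue lower and grey not called. The 4 receptors and *Jag1* lie at -1.53 or below, *Jag2* at 3.00, and most roles hold genes on both sides of 0.

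The enzymes that modify the receptors on their way to the surface were split. Of 6 genes measured, 4 were higher and 2 lower. *Pofut1*, whose product adds O-fucose to Notch receptors, rose by 2.26 on the log2 scale, with 10.32 to 10.71 on E17.5 arrays and 8.28 to 8.37 on E11.5 arrays. The Fringe glycosyltransferases, which extend that sugar and alter the response to Jagged and Delta ligands, went different ways: *Lfng* rose by 1.60 and *Mfng* by 1.33, and *Rfng* fell by 1.77. *Poglut1*, an O-glucosyltransferase gene, fell by 1.29. *Furin*, whose product cuts the receptor precursor, was 0.48 higher as deposited (adjusted p = 0.0010) and 0.07 (adjusted p = 0.55) after quantile normalization. *Mfng* was highest on E17.5 replicates 2 and 5 (8.67 and 8.80), the arrays with most endothelial signal, and that part was not tested.

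The ubiquitin ligases that act on the ligands were split evenly. *Neurl1b* rose by 1.10 and *Mib2* was 0.55 higher, whereas *Mib1*, the ligase that most canonical ligands need, fell by 1.29 and *Neurl1a* by 0.47. *Mib1* had 7.89 to 7.97 on E17.5 arrays and 9.16 to 9.34 on E11.5 arrays, with no overlap. The rise of *Neurl1b* was 0.40 (adjusted p = 0.074) after centring on the pan-epithelial genes, so that it was not called under that scaling. The arrays overlapped for *Mib2* and *Neurl1a*. *Mib2* lost its call without E11.5 replicate 4 (adjusted p = 0.052) or 5 (adjusted p = 0.052), and it stood at 0.05 (adjusted p = 0.84) after quantile normalization and at -0.14 (adjusted p = 0.54) after centring on the pan-epithelial genes.

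The proteases that release the intracellular domain also split. The 2 ADAM proteases moved apart: *Adam10*, whose product makes the first cut after ligand binding, rose 10.7-fold, with 12.32 to 12.62 on E17.5 arrays and 8.67 to 9.37 on E11.5 arrays, and *Adam17* fell 4.53-fold, with 7.83 to 8.67 on E17.5 arrays and 10.29 to 10.58 on E11.5 arrays. The limma adjusted p was 1.7e-10 for *Adam10* and 2.7e-08 for *Adam17*. Among gamma-secretase subunits, *Ncstn* (2.19) and *Psen2* (1.60) rose and *Aph1a* fell (-2.14), each with no overlap between stages. *Psenen* was 0.26 higher as deposited (adjusted p = 0.033), -0.18 (adjusted p = 0.16) after quantile normalization and -0.43 (adjusted p = 0.0069) after centring on the pan-epithelial genes. *Aph1b* had a difference of -0.40 (adjusted p = 0.060).

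In the nucleus, the DNA-binding partner fell and several coactivators rose. *Rbpj*, which encodes the protein that all 4 receptors act through, had 9.56, 9.63, 9.24, 9.03 and 9.43 on E17.5 arrays, against 10.94, 11.13, 11.10, 11.12 and 11.25 on E11.5 arrays. The stages did not overlap, and *Rbpj* fell 3.32-fold (log2 difference -1.73, standard error 0.12, adjusted p = 5.7e-08 from limma). *Maml1*, a Mastermind coactivator gene, rose by 3.24, the acetyltransferase gene *Kat2b* by 4.65 and *Snw1*, which encodes an RBPJ-binding protein, by 2.16. *Crebbp* rose by 0.95, and the related acetyltransferase gene *Kat2a* fell by 1.11. *Ep300* was 0.25 higher as deposited (adjusted p = 0.010) and -0.33 (adjusted p = 0.0024) after quantile normalization. Of 7 genes measured, 5 were called higher and 2 lower as deposited, beside 36.9% higher and 31.5% lower among all genes. After quantile normalization, and after centring on the pan-epithelial genes, 4 were higher and 3 lower.

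The corepressors that hold RBPJ targets silent were divided, with 6 of 11 measured genes higher and 5 lower as deposited. After quantile normalization, and after centring on the pan-epithelial genes, 4 were higher and 5 lower. The largest difference was in *Hdac2*, a histone deacetylase gene, which fell 15.2-fold, with 6.67 to 7.64 on E17.5 arrays and 10.76 to 11.30 on E11.5 arrays. *Hdac1* fell by 0.56, *Tle4* by 0.93, *Ctbp2* by 0.42 and *Ctbp1* by 0.29. *Kdm5a*, a histone demethylase gene, rose by 2.24, *Spen*, whose product tethers deacetylases to RBPJ, by 2.05, and *Tle3*, a Groucho-family corepressor gene, by 1.48.

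Other genes listed as targets of the pathway were higher or not called as deposited. The list holds Hes and Hey family genes and *Nrarp*, and whether each is a target in these cells was not tested. Of 9 measured, 5 were higher, 0 lower and 4 not called as deposited, against 3 higher and 0 lower after quantile normalization and 2 higher and 2 lower after centring on the pan-epithelial genes. The count of higher genes was 3 without E17.5 replicate 2, also 3 without E17.5 replicate 5, and 7 without E17.5 replicate 1. *Hes6*, a relative of *Hes1* that opposes it in neural cells, had 11.56 to 11.76 on E17.5 arrays and 10.11 to 10.28 on E11.5 arrays. It rose by 1.47 (adjusted p = 4.5e-09) and, with *Heyl*, was higher under all 4 scalings. *Hes5*, whose promoter holds the 2 RBPJ motifs shown above, had 6.01, 6.01, 6.26, 6.32 and 5.95 on E17.5 arrays, against 5.35, 5.31, 5.43, 5.04 and 5.23 on E11.5 arrays. The stages did not overlap, the difference was 0.83 (adjusted p = 1.7e-05), and it stood at 0.14 (adjusted p = 0.33) after centring on the pan-epithelial genes.

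The Hey genes and *Nrarp* varied more between E17.5 arrays than *Hes1* did. *Hey1*, which encodes a repressor active in arteries and in epithelium, had 10.62, 11.96, 11.29, 9.97 and 11.85 on E17.5 arrays, against 10.18, 10.35, 10.17, 9.96 and 10.29 on E11.5 arrays. *Nrarp*, a feedback inhibitor of the pathway, had 8.73, 10.10, 9.60, 9.42 and 10.27 on E17.5 arrays, against 8.76, 9.14, 8.54, 9.04 and 9.08 on E11.5 arrays. Both were highest on E17.5 replicates 2 and 5, and the stages overlapped. The endothelial list means of the E17.5 arrays, replicates 1 to 5, were 9.07, 10.4, 9.49, 8.70 and 10.6. The smooth muscle and pericyte means were 7.06, 8.11, 7.71, 7.70 and 8.01, and the mesenchymal means 7.35, 8.36, 7.93, 7.71 and 8.08. All 3 lists were thus highest on replicates 2 and 5. The endothelial mean and *Hey1* were lowest on replicate 4, and the other lists and *Nrarp* on replicate 1. The part of such cells in these values was not tested. *Hey1* was 0.95 higher (adjusted p = 0.022) and *Nrarp* 0.71 higher (adjusted p = 0.026), and neither call stood without replicates 2 and 5, at 0.44 (adjusted p = 0.15) for *Hey1* and 0.34 (adjusted p = 0.19) for *Nrarp*. Both calls were also lost after quantile normalization, at 0.36 (adjusted p = 0.36) for *Hey1* and 0.18 (adjusted p = 0.52) for *Nrarp*.

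*Heyl* had 5.66, 7.02, 6.87, 6.13 and 6.31 on E17.5 arrays, against 5.00, 4.54, 5.12, 4.61 and 4.61 on E11.5 arrays. It rose by 1.62 (adjusted p = 6.1e-05), and every E17.5 array lay above every E11.5 array. Among E17.5 arrays it was lowest on replicate 1 and highest on replicate 2, as were the smooth muscle and pericyte means and the mesenchymal means. The part of such cells in *Heyl* was not tested. *Hey2*, with the RBPJ motif shown above, had 6.17, 8.34, 7.00, 6.96 and 7.32 on E17.5 arrays, against 6.16, 7.02, 6.32, 6.43 and 6.26 on E11.5 arrays. Like *Hey1* and *Nrarp*, *Hey2* was highest on E17.5 replicates 2 and 5. Its difference of 0.72 did not pass the threshold (adjusted p = 0.070), and neither did those of *Hes7* (0.41, adjusted p = 0.065), *Hes3* (0.18, adjusted p = 0.18) and *Hes2* (-0.05, adjusted p = 0.76).

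**Figure D5:**
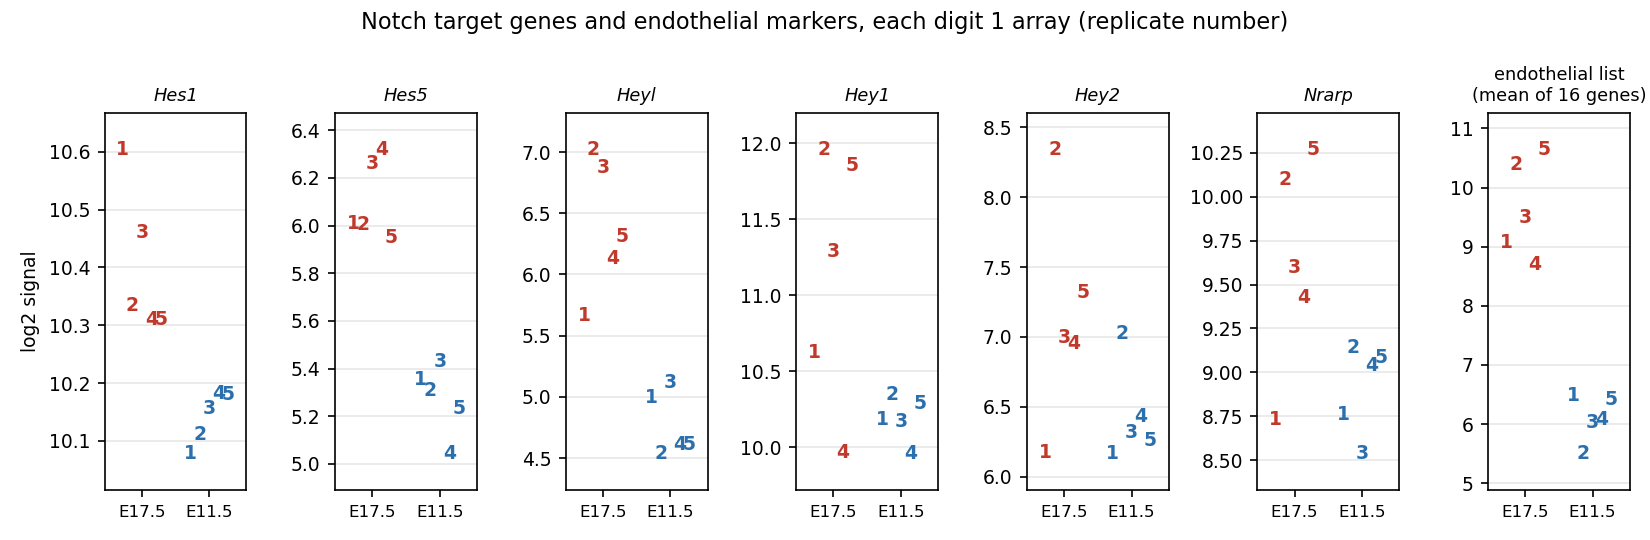
Log2 signal (y axis, a scale of its own in each panel) of *Hes1*, *Hes5*, *Heyl*, *Hey1*, *Hey2* and *Nrarp* and mean log2 signal of 16 endothelial genes, E17.5 in red on the left and E11.5 in blue on the right; each digit is an array, named by its replicate number. *Hey1*, *Hey2*, *Nrarp* and the endothelial mean are highest on E17.5 replicates 2 and 5, whereas *Hes1* is highest on replicate 1 and *Hes5* on replicate 4.

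Genes that dampen the pathway or turn its proteins over were divided as well. Of 11 measured, 4 were higher, 3 lower and 4 not called as deposited. The counts were 4 higher and 5 lower after quantile normalization, and 4 higher and 7 lower after centring on the pan-epithelial genes. *Numb*, which encodes an adaptor that removes the receptor from the membrane, had 11.51 to 11.75 on E17.5 arrays and 8.39 to 8.72 on E11.5 arrays, a rise of 8.22-fold. *Itch*, whose ubiquitin ligase works with Numb, rose 16.1-fold, with 11.05 to 11.35 on E17.5 arrays and 6.87 to 7.53 on E11.5 arrays. *Dtx3l* rose by 2.05 and *Sel1l* by 1.56. *Fbxw7*, whose ubiquitin ligase targets the intracellular domain for degradation, fell by 1.54, with 8.61 to 9.07 on E17.5 arrays and 10.16 to 10.66 on E11.5 arrays. *Dtx2* fell by 0.56 and *Numbl* by 0.46. *Dtx1* (-0.13), *Dtx3* (0.13), *Dtx4* (0.26) and *Aak1* (-0.14) were not called as deposited. All these values rest on 1 probe set a gene except that of *Dlk1*, and among the 167 genes of the table with several, the probe sets differed by over 2 log2 units in their stage difference for 28.1%.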

How the data were processed

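RNA from 5 E17.5 and 5 E11.5 samples was isolated with a Qiagen kit, amplified and labelled with NuGEN Ovation kits and hybridised to Affymetrix mouse microarrays, and, per the study's methods, the authors used Bioconductor in R to analyse them. The deposited values are log2 signals of 21204 probe sets, 1 column an array. How the authors corrected the background, normalized the arrays and chose the probe sets was not given in the sources used here. That the scale is log2 was inferred from its range. Platform annotation named 1 gene for 17981 probe sets, several for 514 and none for 2709, and the last 2 kinds were left out. Where a gene had several probe sets (167 genes), the one with the highest mean was used.

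A linear model was fitted with limma 3.58.1 (lmFit, eBayes) in R 4.3.3 over 17813 genes as E17.5 minus E11.5, with Benjamini-Hochberg adjustment and calls at 0.05. No filter on dim genes was applied. Folds are 2 to the power of the log2 difference. Pairs of genes were tested with a two-sided exact permutation test over 252 splits of the arrays. The fit was tested on simulated data. The 4 genes, the pathway lists and the marker lists were chosen with earlier results of these data known. Named are the 4 genes, in each pathway list up to 4 called genes with the largest difference, genes needed to name a count of 5 or fewer, and in each marker list described up to 2 genes. The lower genes of the pan-epithelial, secretory airway, ciliated and AT2 lists are named as well. Listed pathway genes beyond the 63 measured ones were not analysed here.

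Alternatives were quantile normalization, centring of arrays on the median or on the mean of the pan-epithelial genes, the lowest or the mean probe set, leaving out probe sets that can match several transcripts, leaving out dim genes, a block for the replicate number, weights for the arrays, eBayes with trend and robust, and each array left out in turn. Leaving out E17.5 replicates 2 and 5 together was added after the data were seen. The number of arrays limits the precision. Promoter windows came from RefSeq (GRCm38.p6) and matched 58 of 73 listed pathway genes. Python 3.11.15 and matplotlib 3.10.9 drew the figures.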

Additional observations from a re-analysis of the deposited data

Results flagged for a closer look

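In 5 of 134 groups of 5 arrays checked over the pathway genes, 1 array stood far from the other 4. Chance alone flags about 1 in 20 groups, or 7 here, and none of *Notch1*, *Notch2*, *Jag1* and *Hes1* was among them. *Dlk1* was low on E11.5 replicate 4, at a log2 signal of 12.53, with the nearest array at 12.75. *Ncstn* was high on E11.5 replicate 5, at 8.63, with the nearest at 8.37. *Cir1*, a corepressor gene, was low on E11.5 replicate 1, at 9.72, with the nearest at 9.92. *Tle1*, a Groucho-family corepressor gene, was low on E17.5 replicate 3, at 8.31, with the nearest at 8.66. *Dtx3*, a Deltex-family ubiquitin ligase gene, was high on E11.5 replicate 1, at 11.02, with the nearest at 10.40.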

How the results depend on the processing

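*Notch1*, *Notch2* and *Jag1* were lower at E17.5 under every alternative that gave a value, with log2 differences of -2.23 to -1.43 for *Notch1*, -4.21 to -3.45 for *Notch2* and -2.64 to -1.88 for *Jag1*. *Jag1* had no value where dim genes were left out. With 1 array left out at a time they were -1.57 to -1.43, -3.56 to -3.45 and -2.05 to -1.88. *Hes1*, at 0.26 as deposited, was -0.34 (adjusted p = 0.0030) after quantile normalization, 0.13 (adjusted p = 0.26) after median centring, -0.43 (adjusted p = 0.00048) after centring on the pan-epithelial mean, and 0.21 to 0.29 with 1 array left out. The cause was not tested. The 18 pathway genes called lower became 29 after centring on the pan-epithelial mean, a constant shift of each array. With 1 array left out, 30 to 35 were higher and 18 to 19 lower, and without E17.5 replicates 2 and 5 together 30 and 17. *Notch1* minus *Jag1* was 0.0095 (adjusted p = 1) after quantile normalization and 0.29 (adjusted p = 0.29) without E17.5 replicates 2 and 5. With 1 array left out it was 0.35 to 0.62, and its call was lost in 9 of 10 cases, all but that without E17.5 replicate 1.

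The labels number the replicates of both stages 1 to 5. Deviations of same-numbered arrays correlated at -0.29, -0.18, -0.01, -0.10 and 0.07, and differently numbered arrays were not compared. These values show no sign of pairing by number but cannot exclude it. With the replicate number as a block in limma, *Hes1* stood at 0.26 (adjusted p = 0.052) and 32 pathway genes were higher and 18 lower. In pairs of arrays by number, an exact sign-flip test of the within-array differences cannot pass the threshold, and its adjusted p was 0.075 for *Notch1* minus *Notch2* (1.98), *Notch1* minus *Hes1* (-1.79), *Notch2* minus *Jag1* (-1.57), *Notch2* minus *Hes1* (-3.77) and *Jag1* minus *Hes1* (-2.20), and 0.125 for *Notch1* minus *Jag1* (0.41). The number of arrays and 1 probe set for nearly every gene limit these values. Signals near the bottom of the range, such as those of *Notch2* and *Jag1* at E17.5, *Notch4*, *Dll3*, *Hes2* and *Hes3*, may understate a difference.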

Other observations

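Markers of the cell fates in which Notch signalling is known to act were measured on the same arrays. Of 6 secretory airway genes, 4 were higher at E17.5 and 1 lower, with list means of 9.85 to 10.5 on E17.5 arrays and 6.08 to 6.60 on E11.5 arrays. The largest differences were those of *Scgb1a1* (8.97) and *Scgb3a2* (8.34), which encode secretoglobins of club cells. The 1 lower gene was *Sox2*, which the study used as a bronchiolar marker. It had 5.88 to 6.92 on E17.5 arrays and 10.60 to 11.22 on E11.5 arrays. Of 8 ciliated cell genes, 6 were higher and 2 lower, with list means of 6.93 to 7.99 on E17.5 arrays and 5.84 to 6.06 on E11.5 arrays. The largest differences were those of *Dynlrb2* (6.39) and *Ccdc113* (2.68). The 2 lower genes were *Tekt1*, with 7.56 to 8.88 on E17.5 arrays and 8.88 to 9.33 on E11.5 arrays, and *Dnah9*. For both the arrays of the stages overlapped. Of 7 neuroendocrine genes, 3 were higher and 2 lower, and the list means overlapped, at 5.52 to 6.08 on E17.5 arrays and 5.51 to 5.82 on E11.5 arrays. Of the alveolar lists, 9 of 11 AT2 genes were higher and 2 lower, and 9 of 9 AT1 genes were higher. The 2 lower genes were *Etv5* and *Lpcat1*. *Lpcat1* had 3.06 to 3.32 on E17.5 arrays, near the lowest signals of the table, and 7.81 to 7.98 on E11.5 arrays. The study stained LPCAT1 protein in tip cells from E16.5 on, and the reason for the low RNA signal was not tested.

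Of 5 mesothelial genes, 3 were higher at E17.5 and 1 lower.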
